A study of Homo sapiens with 3 samples.

Results

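The SOX, PAX and T-box transcription factors were examined in 2 ChIP-seq peak lists from PANC-1, a human cell line established from a ductal carcinoma of the pancreas. ChIP-seq maps where a protein sits on DNA by sequencing the fragments that its antibody pulls down. The genes were taken by family membership: 18 SOX genes (SOX9 was not among them), 9 PAX genes and 17 T-box genes. These were 44 of the 20163 protein-coding genes considered, and they were chosen with earlier results of these data known. A peak was counted for a gene when it lay within 5 kb of any annotated transcription start site (TSS) of that gene or inside its gene body. By this rule the genes held 56 of the 21639 EZH2 peaks and 23 of the 19039 PHF13 peaks.

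The series consists of 3 libraries, with 1 library each for the EZH2 antibody, the PHF13 antibody and input chromatin. The cells were labelled wildtype, no treatment was listed, and all libraries came from the same line after crosslinking with EGS and formaldehyde. With 1 library per antibody there was no replicate check and no test between conditions, so the values below describe these 2 lists. The identity of the line could not be checked from peak positions.

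SOX factors bind DNA through an HMG box, PAX factors through a paired domain and T-box factors through the T-box. These families steer cell fate in the embryo, from pluripotency and the neural tube to kidney, eye, heart and limb. EZH2 is the methyltransferase of Polycomb repressive complex 2, which places H3K27me3 and is known to occupy the CpG-rich starts of developmental regulators in cells that do not use them. PHF13 is a PHD-finger protein that reads methylated histone H3K4.

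EZH2 peaks were found at 22 of the 44 genes (50%), whereas 30.0% of all protein-coding genes had one by the same rule. PHF13 peaks were found at 13 genes (29.5%), beside 31.2% of all protein-coding genes. Wide EZH2 peaks, over 1 kb, were present at 11 genes (25%), beside 7.35% of all. Peaks of both lists were present at 6 genes (13.6%), beside 12.6% of all. The EZH2 shares thus lay above the background and the PHF13 share near it. The 44 genes had a median length of 13.4 kb, beside 27.2 kb for all protein-coding genes, and the rule gives a short gene less sequence in which a peak can fall. In total the rule still covered 3.50 Mb, since SOX5 (1033 kb) and SOX6 (773 kb) are long. Per Mb covered there were 16.0 EZH2 peaks, beside 7.78 for all protein-coding genes, and 6.56 PHF13 peaks, beside 6.85.

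Sequences at a few summits, the positions of highest coverage, are given as examples chosen for their width, overlap or letters, and do not stand for the other peaks. Each is 200 bp of the plus strand of GRCh37 around a summit. For EZH2, the widest peak of each family with its summit outside untranslated sequence is shown, with CpG dinucleotides in capitals. The SOX6 site lies in an intron at chr11:16626769-16626968 and holds 21 CpGs. The PAX5 site lies in an intron at chr9:37026123-37026322 and holds 12 CpGs. The TBR1 site lies in an exon of a non-coding transcript at chr2:162273868-162274067 and holds 10 CpGs.
SOX6, EZH2 summit: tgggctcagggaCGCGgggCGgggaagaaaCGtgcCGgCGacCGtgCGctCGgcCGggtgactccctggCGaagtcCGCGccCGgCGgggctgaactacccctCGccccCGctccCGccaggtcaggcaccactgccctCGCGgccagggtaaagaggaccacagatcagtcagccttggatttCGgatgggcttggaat
PAX5, EZH2 summit: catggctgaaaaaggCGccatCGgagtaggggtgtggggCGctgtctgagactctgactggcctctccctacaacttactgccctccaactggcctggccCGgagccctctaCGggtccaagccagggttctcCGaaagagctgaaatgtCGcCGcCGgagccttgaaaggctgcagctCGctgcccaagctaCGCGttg
TBR1, EZH2 summit: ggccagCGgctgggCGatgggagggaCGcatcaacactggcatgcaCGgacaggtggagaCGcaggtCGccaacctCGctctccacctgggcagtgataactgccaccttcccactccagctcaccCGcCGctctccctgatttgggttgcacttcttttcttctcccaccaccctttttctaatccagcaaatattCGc

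For PHF13, the peak of TBX21 is shown because it was the PHF13 peak that overlapped an EZH2 peak. It lies in a coding exon at chr17:45822257-45822456 and holds 4 CpGs, in capitals.
TBX21, PHF13 summit: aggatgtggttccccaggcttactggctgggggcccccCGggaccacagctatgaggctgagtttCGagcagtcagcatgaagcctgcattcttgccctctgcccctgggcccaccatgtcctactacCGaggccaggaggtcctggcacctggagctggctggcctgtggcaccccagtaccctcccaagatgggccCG

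The remaining PHF13 sequences are the 2 strongest summits in introns of PAX5, shown because each holds the letters TGACTCA or, on the other strand, TGAGTCA. These letters are the site of AP-1, the FOS and JUN dimer, and are in capitals. The sites lie at chr9:36924092-36924291, which holds the letters 2 times, and at chr9:36903810-36904009.
PAX5, strongest PHF13 summit: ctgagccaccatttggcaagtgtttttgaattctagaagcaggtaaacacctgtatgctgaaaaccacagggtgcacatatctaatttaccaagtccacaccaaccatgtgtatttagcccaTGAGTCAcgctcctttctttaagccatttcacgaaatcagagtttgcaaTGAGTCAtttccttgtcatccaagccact
PAX5, PHF13 summit furthest from a start: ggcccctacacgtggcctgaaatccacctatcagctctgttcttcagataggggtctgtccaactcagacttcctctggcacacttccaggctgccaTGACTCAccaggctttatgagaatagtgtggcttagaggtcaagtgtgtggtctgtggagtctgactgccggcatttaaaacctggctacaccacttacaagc

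**Figure D1:**
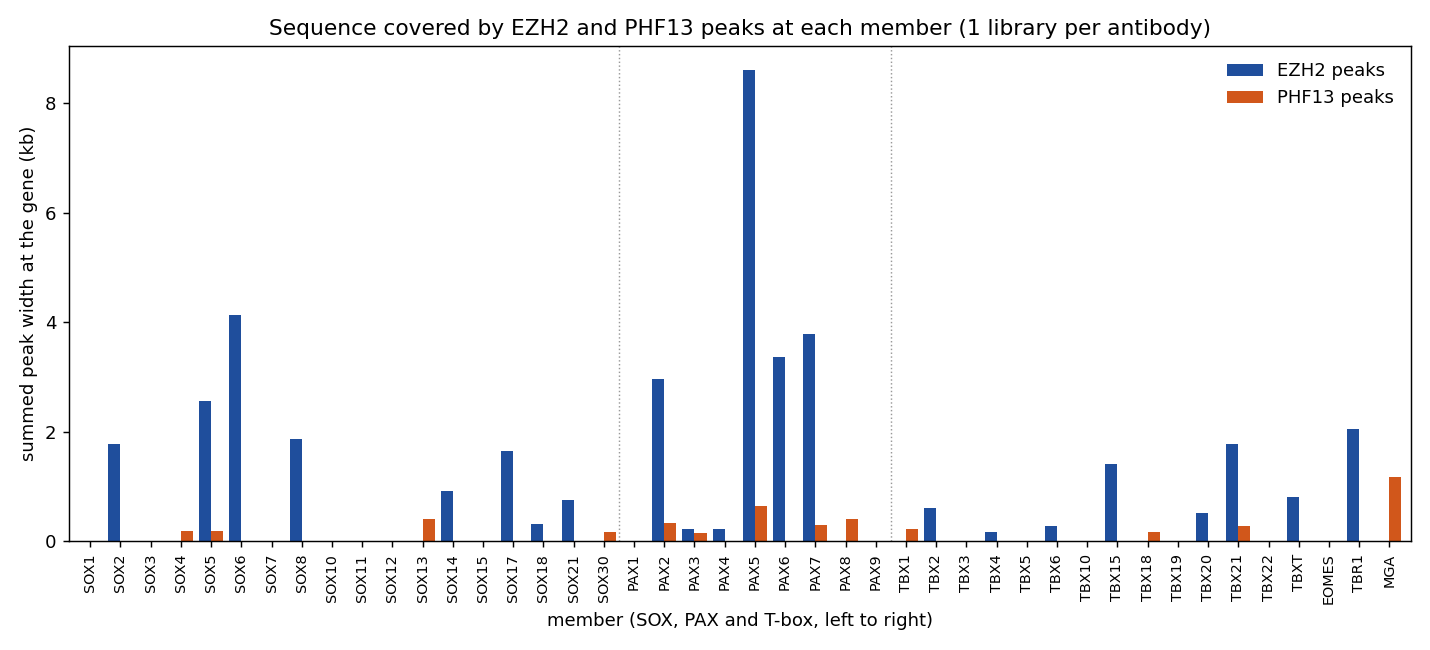
Summed width of EZH2 (blue) and PHF13 (orange) peaks at each of the 44 genes, in kb, from 1 library per antibody; dotted lines separate the SOX, PAX and T-box families. PAX5 had the largest EZH2 sum, 8616 bp, and no PHF13 sum exceeded the 1172 bp of MGA.

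EZH2 was found at 8 of 18 SOX genes, with 18 peaks that covered 14.0 kb. Among the SOXB1 genes, which maintain pluripotent and neural progenitor cells, SOX2 had a 1587 bp peak over its TSS at chr3:181429386-181430972. Its summit was in untranslated exon sequence, with 75 fragments, a fold enrichment of 3.61 over the local background and a −log10 q of 17.1. A narrow SOX2 peak of 190 bp followed within the gene. SOX1 and SOX3, the other SOXB1 genes, had no peak of either list.

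The SOXD genes, which act in cartilage and neural differentiation, held the widest SOX peaks. At SOX5, a 2247 bp peak at chr12:24714452-24716698 covered a TSS, with 128 fragments, a fold of 3.69 and a −log10 q of 30.5. At SOX6, peaks of 1682 bp (chr11:16625955-16627636) and 1212 bp lay over starts of the gene, with 121 and 133 fragments, folds of 2.60 and 2.63 and −log10 q of 16.2 and 18.3. A 969 bp peak counted for SOX6 covered the TSS of C11orf58, its neighbour, and lay 5039 bp from the closest SOX6 start. SOX13, the remaining SOXD gene, had PHF13 peaks and no EZH2 peak.

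SOX8, a SOXE gene of neural crest and testis, had a 1614 bp peak over its TSS at chr16:1031483-1033096, with 81 fragments, a fold of 3.67 and a −log10 q of 18.9. Its second, 258 bp peak was closer to a start of LMF1 (312 bp) than of SOX8 (785 bp). SOX17, the SOXF gene that specifies endoderm, had 1 peak of 1640 bp over its TSS at chr8:55370269-55371908, but only 43 fragments at the summit, a fold of 2.72 and a −log10 q of 5.64. SOX18, a SOXF gene of vessel development, had 2 peaks of 159 and 161 bp in its coding exons. SOX14 and SOX21, the SOXB2 genes of neural differentiation, also differed: SOX21 had a 755 bp peak 142 bp from its TSS, whereas the 3 SOX14 peaks all lay downstream of the gene, 3571 to 4484 bp from its start. SOX14 therefore had a peak by the distance rule and none over the gene itself.

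PAX genes carried the most EZH2 by the rule, with peaks at 6 of 9 genes, 24 peaks and 19.2 kb. The rule includes the gene body, and the median length was 62.9 kb at PAX, 4.77 kb at SOX and 17.0 kb at T-box genes. Within 5 kb of a TSS the shares with EZH2 were closer, 55.6%, 44.4% and 47.1%, beside 23.6% of all protein-coding genes. PAX5, the B-lineage factor, had 8 peaks that covered 8616 bp, 21.2% of all EZH2-covered sequence at the 44 genes. Its widest peak, 2506 bp at chr9:37025145-37027650, covered an internal TSS with 196 fragments, a fold of 3.09 and a −log10 q of 36.4. A 2362 bp peak began 716 bp upstream of a start, with 116 fragments. An 1856 bp peak lay 15574 bp from the closest start in an intron and reached a fold of 4.33 and a −log10 q of 32.3 with 111 fragments.

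PAX2, a kidney and optic regulator, had its widest peak upstream, 3737 bp from the closest TSS at chr10:102489506-102491416. This peak was 1911 bp wide, with 104 fragments, a fold of 4.66 and a −log10 q of 32.9. A 470 bp PAX2 peak covered a TSS. PAX6, the eye and islet regulator, had 5 peaks. The widest, 1563 bp at chr11:31837553-31839115, had 83 fragments, a fold of 2.99 and a −log10 q of 14.1. It covered a TSS of the gene ENSG00000285283 and lay 343 bp from the closest PAX6 start. The 957 bp peak over a PAX6 TSS had 83 fragments as well, with a fold of 3.13 and a −log10 q of 15.2.

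PAX7, a muscle and neural crest factor, had a 1722 bp peak over its TSS at chr1:18957293-18959014, with 118 fragments, a fold of 3.07 and a −log10 q of 21.3. A 1037 bp peak 11476 bp from the closest start had more fragments, 139, and a lower fold, 2.30. PAX3, its paralogue, had only a 213 bp intronic peak of 17 fragments, and PAX4, of the endocrine pancreas, a 224 bp intronic peak of 41 fragments. No EZH2 peak was present at PAX1, PAX8 or PAX9.

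EZH2 was found at 8 of 17 T-box genes, with 14 peaks and 7.61 kb. Wide peaks were present at 2 of them. TBR1, a factor of cortical neurons, had a 1242 bp peak at chr2:162273053-162274294, with 70 fragments, a fold of 2.65 and a −log10 q of 9.31. TBX21, the T-bet factor of T helper cells, had a 1039 bp peak over its TSS at chr17:45810435-45811473, with 69 fragments, a fold of 3.59 and a −log10 q of 15.5. Just below this width, TBX15, a limb and skeletal factor, had an 842 bp peak at chr1:119529881-119530722. It reached 60 fragments, a fold of 4.75, the highest of the 56 peaks, and a −log10 q of 19.3.

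The other T-box peaks were narrower. TBX2, a repressor in heart and limb, had peaks of 298 and 299 bp just upstream of its TSS, with −log10 q of 7.87 and 8.43. TBXT, the mesoderm factor Brachyury, had peaks of 374 and 434 bp within 325 bp of a start. TBX20, a cardiac factor, had a 517 bp intronic peak, and TBX4 and TBX6, of hindlimb and paraxial mesoderm, had peaks of 17 and 16 fragments. These last peaks, with −log10 q of 3.06 and 2.55, rested on few fragments.

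The EZH2 peaks of the 44 genes were wider, taller and richer in CpG, at the median, than the EZH2 peaks that the same rule gave for all protein-coding genes. Their width ranged from 150 to 2506 bp with a median of 375 bp, whereas the median was 234 bp at all protein-coding genes and 216 bp in the whole list. Over 1 kb lay 15 of the 56 (26.8%), beside 13.2% at all protein-coding genes and 7.67% of the list. The summits held 16 to 196 fragments with a median of 53, beside 26 at all protein-coding genes and 25 in the list. The CpG observed/expected ratio over 500 bp at the summit had a median of 0.696, beside 0.337 at all protein-coding genes and 0.271 in the list. The GC content had a median of 62.1%, beside 53.0% and 49.6%. Single-copy sequence lay under 55 of the 56 summits, the exception being 1 intronic peak of SOX6. Multi-copy summits thus made up 1.79%, beside 19.0% at all protein-coding genes and 32.0% of the list.

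Fold enrichment went the other way, with a median of 2.77 at these genes, 3.14 at all protein-coding genes and 3.13 in the whole list. The local background solved from each peak had a median of 20.8 fragments at these genes, 7.78 at all protein-coding genes and 7.28 in the list, and reached 62.8 at the widest PAX5 peak. In 100% of EZH2 peaks above the background floor, this value was, within 0.02 of a step, a whole multiple of the narrowest peak width of the list divided by 10 kb, and the same was true of PHF13. That is the step that an unscaled count of fragments over 10 kb would give. Whether the input entered the background was not tested, so the fold of a wide peak is read here only against coverage of the 10 kb around it.

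**Figure D2:**
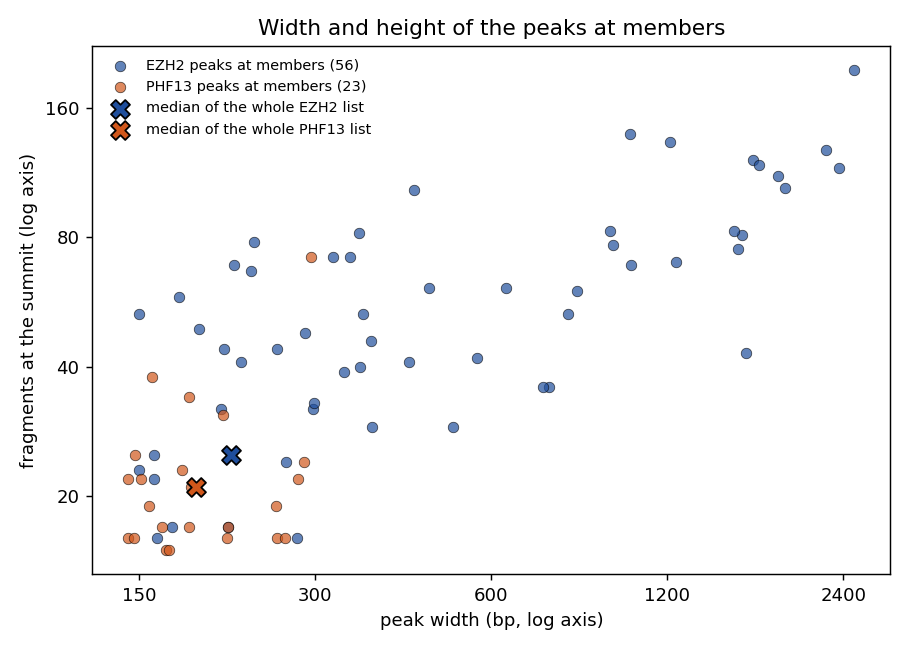
Width in bp against fragments at the summit (both log axes) of the 56 EZH2 (blue) and 23 PHF13 (orange) peaks at the 44 genes; crosses mark the medians of the whole lists. EZH2 points extend to 2506 bp and 196 fragments, and no PHF13 point is wider than 295 bp.

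The EZH2 peaks gathered at starts. Of the 56 peaks, 41 lay within 5 kb of a TSS of their gene and 13 covered one. Peaks covering a TSS were not counted for all protein-coding genes. A density of 41.4 peaks per Mb was reached within 5 kb of a TSS, beside 14.5 for all protein-coding genes, and of 5.96 per Mb in the rest of the gene bodies, beside 4.55. The PAX genes differed from the other families in the rest of the gene body, with 21.1 peaks per Mb, compared with 2.39 at SOX and 2.73 at T-box genes. Of the 10 PAX peaks there, PAX5 held 5.

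A promoter rich in CpG, here an observed/expected ratio of at least 0.6 from 250 bp before to 50 bp after the main start, was found at 28 of the 44 genes. EZH2 peaks were present at 16 of these 28 (57.1%), beside 30.8% of all genes with such a promoter. Wide EZH2 peaks were present at 7 (25%), beside 9.20%. PHF13 peaks were present at 8 (28.6%), beside 35.8%. CpG-rich promoters without EZH2 were found at 12 genes, among them SOX1 (ratio 0.819), SOX12 (1.12), TBX3 (0.926) and MGA (0.839). Of the 16 genes with a lower ratio, 6 (37.5%) had EZH2, beside 28.4% of all genes with such a ratio. At SOX6 the main promoter had a ratio of 0.175, and the widest peak, at another start, had 0.874. At SOX5 the values were 0.355 and 0.833.

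PHF13 peaks were narrow and scattered. They were 144 to 295 bp wide, with a median of 183 bp (186 bp at all protein-coding genes), and held 15 to 72 fragments with a median of 19 (20 at all protein-coding genes). Only 4 of 23 (17.4%) reached a −log10 q of 5, compared with 26.1% at all protein-coding genes and 30.4% of the list. None covered a TSS of its gene, the closest being an MGA peak 3 bp away. How many PHF13 peaks at all protein-coding genes cover a TSS was not counted. Their density within 5 kb of a TSS was 10.1 per Mb, beside 9.98 for all protein-coding genes, and 5.17 beside 5.36 in the rest of the gene bodies. As a pool, the 44 genes did not stand apart from the background in PHF13 density in either stretch. MGA held 4 of the 10 peaks within 5 kb of a TSS, and the share of genes with PHF13 there was 13.6%, beside 21.0%. In the rest of the gene bodies the families differed, with 14.8 PHF13 peaks per Mb at PAX, 8.18 at T-box and 1.79 at SOX genes. These densities rested on 7, 3 and 3 peaks. PAX genes were thus the densest family there for PHF13 as for EZH2, though PAX5 alone held 3 of the 7 PHF13 peaks. The stretch compared was 1.67 Mb at SOX genes, mostly in the long SOX5 and SOX6, beside 0.474 Mb at PAX and 0.367 Mb at T-box genes.

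The PAX genes held 9 of these peaks, at PAX2, PAX3, PAX5, PAX7 and PAX8. The strongest was at PAX5, 42229 bp from the closest TSS at chr9:36924063-36924357, with 72 fragments, a fold of 5.35 and a −log10 q of 26.2. The others at PAX5 were a 158 bp peak at chr9:36903860-36904017, with 38 fragments, a fold of 3.71 and a −log10 q of 8.25, and a 183 bp peak with 34 fragments, a fold of 2.73 and a −log10 q of 3.91. PAX7 had 1 peak of 287 bp at chr1:19009242-19009528, 51224 bp from a start, with 24 fragments, a fold of 3.77 and a −log10 q of 5.09. PAX2 had 2 intronic peaks of 15 and 19 fragments. PAX8, a thyroid and kidney factor and the only PAX gene with PHF13 near a start, had an intronic peak 2858 bp from a TSS and an upstream peak at 4969 bp, of 16 and 22 fragments. The PAX3 peak lay in sequence whose 24-mers had a median of 411 copies in the genome.

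**Figure D3:**
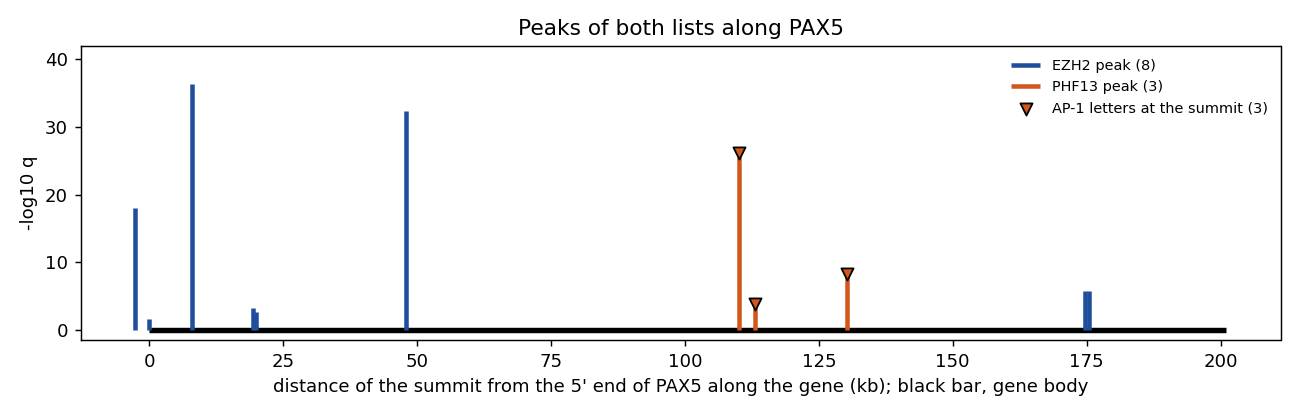
EZH2 (blue) and PHF13 (orange) peaks along PAX5, by distance of the summit from the 5′ end of the gene in kb, with −log10 q as height; triangles mark PHF13 summits with the AP-1 letters, and the black bar is the gene body. The 3 PHF13 peaks lie between EZH2 peaks and none overlaps one.

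At T-box genes, MGA, which pairs with MAX and carries a T-box, had 6 PHF13 peaks and no EZH2 peak. The strongest, 209 bp at chr15:41913479-41913687, lay 3 bp from a TSS, with 31 fragments, a fold of 4.23, a −log10 q of 8.12 and a CpG ratio of 0.995. A 148 bp peak followed 509 bp from a start, with 25 fragments. The other MGA peaks were intronic, with 16 to 22 fragments, and 2 of them lay in multi-copy sequence. TBX1, the pharyngeal arch factor, and TBX18, of the sinus node and ureter, had 1 PHF13 peak each within 1 kb of a TSS, with 16 and 17 fragments, both at a CpG ratio above 1.

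Among SOX genes, SOX4 and SOX13 had PHF13 within 5 kb of a start. The SOX4 peak lay 4371 bp upstream of this progenitor and tumour-associated factor, with 21 fragments and a −log10 q of 4.38. SOX13 had a peak 302 bp from a start and another in an intron, each with 17 fragments. SOX30, a spermatid factor, had an intronic peak of 15 fragments, and SOX5 an intronic peak of 23 fragments in sequence with a median of 2 copies.

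**Figure D4:**
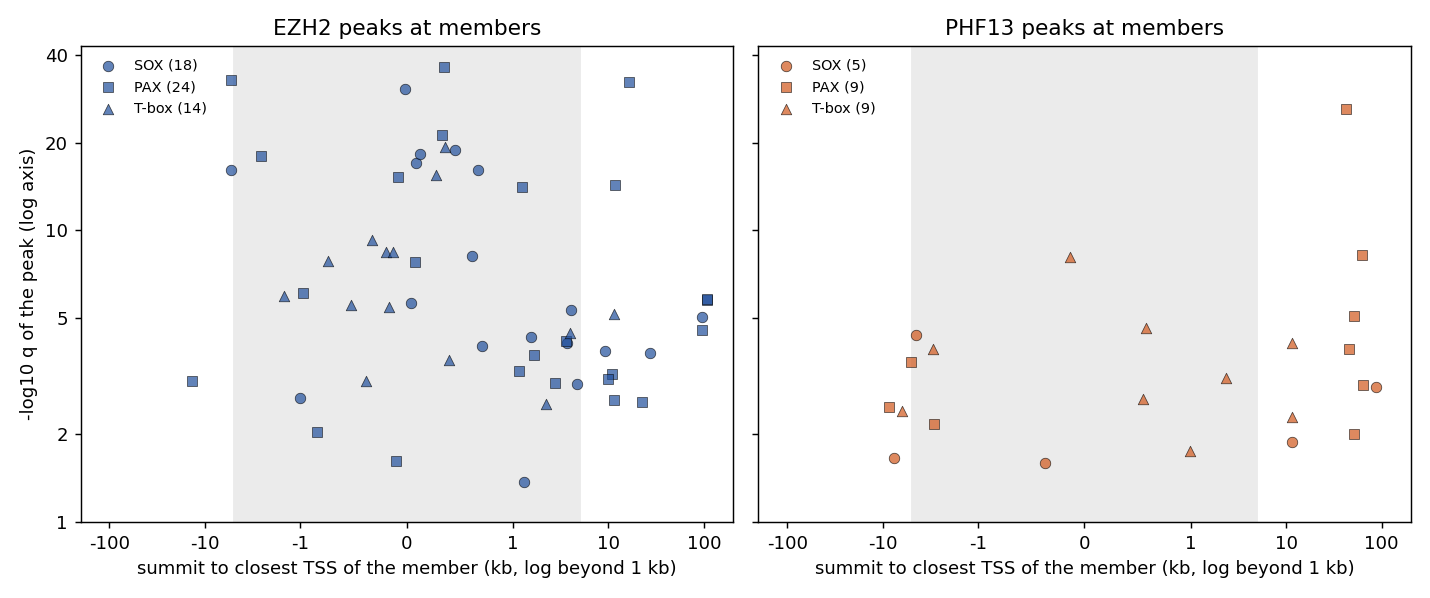
Distance of each summit from the closest TSS of its gene (kb; linear within 1 kb, log beyond, negative upstream) against −log10 q (log axis), for 56 EZH2 peaks (left) and 23 PHF13 peaks (right); shapes mark families and grey the 5 kb around a start. EZH2 peaks cluster in the grey zone, and the strongest PHF13 peak lies outside it.

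To ask whether PHF13 and EZH2 met at these genes, positions were compared. Both were present at SOX5, PAX2, PAX3, PAX5, PAX7 and TBX21, where the product of the separate shares would give 6.5 of 44 genes. Within 5 kb of a TSS, EZH2 was present at 21 genes (47.7%), beside 23.6% of all protein-coding genes, and PHF13 at 6 (13.6%), beside 21.0%. No gene had both there, beside 5.33% of all protein-coding genes. Among all genes with PHF13 near a start, 25.4% also had EZH2 near one, compared with 0 of the 6 genes here. With 6 genes, this difference rests on few sites.

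An overlap with an EZH2 peak was found for 1 of the 23 PHF13 peaks (4.35%). This share was near the 5.34% of the PHF13 peaks at all protein-coding genes, beside 11.7% of the whole PHF13 list. Of single-copy PHF13 peaks, 1 of 19 overlapped at these genes, beside 2.67% in the list. The overlapping peak was the TBX21 peak shown above, 281 bp at chr17:45822177-45822457. It lay wholly inside a 735 bp EZH2 peak at chr17:45822000-45822734. The PHF13 peak had 22 fragments, a fold of 3.54 and a −log10 q of 4.10. The EZH2 peak had 36 fragments, a fold of 2.87 and a −log10 q of 5.19. The summits were 220 bp apart, in a coding exon 11.3 kb and 11.6 kb from the closest TSS, and both were in single-copy sequence. At the other genes with both, the closest peaks of the lists were 4.81 kb apart at PAX3, 8.20 kb at SOX5, 28.8 kb at PAX7, 43983 bp at PAX5 and 54.5 kb at PAX2.

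Short motifs were sought in the 200 bp at each summit on both strands. The AP-1 letters were present at 4 of 23 PHF13 summits (17.4%), beside 12.3% at all protein-coding genes, 11.2% of the PHF13 list and 2.17% of windows 1000 bp to the sides of these 23. The 4 were the 3 PAX5 peaks and 1 multi-copy peak in MGA, all further than 5 kb from a TSS. None of the 56 EZH2 summits held them, beside 2.31% of the EZH2 list. The letters AACAAT, on the opposite strand ATTGTT, are a core bound by SOX proteins. They were present at 5 EZH2 summits (8.93%), beside 5.72% at all protein-coding genes and 6.77% of the list. For PHF13 they were present at 2 summits (8.70%), beside 7.96% and 8.69%. In windows 1000 bp to the sides they were present at 4.46% for EZH2 and 6.52% for PHF13, beside 11.1% and 12.6% in the lists. The T-box half-site AGGTGTGA, on the opposite strand TCACACCT, was present at none of either, and in the whole lists it was as rare as 1.88% of EZH2 and 1.93% of PHF13 summits.

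Other developmental families were taken for comparison. EZH2 peaks within 5 kb of a TSS were present at 35.9% of 39 HOX genes, 48.1% of 52 FOX genes, 66.7% of 6 GATA genes and 57.1% of 21 bHLH genes of neural and mesodermal cells. The 47.7% of the SOX, PAX and T-box genes lay within this range. PHF13 near a start ranged from 9.52% to 23.1% in these families, around the 13.6% here. Ribosomal protein genes, which every cell uses, had the opposite order, with EZH2 near a start at 3.80% of 79 genes and PHF13 at 26.6%.

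**Figure D5:**
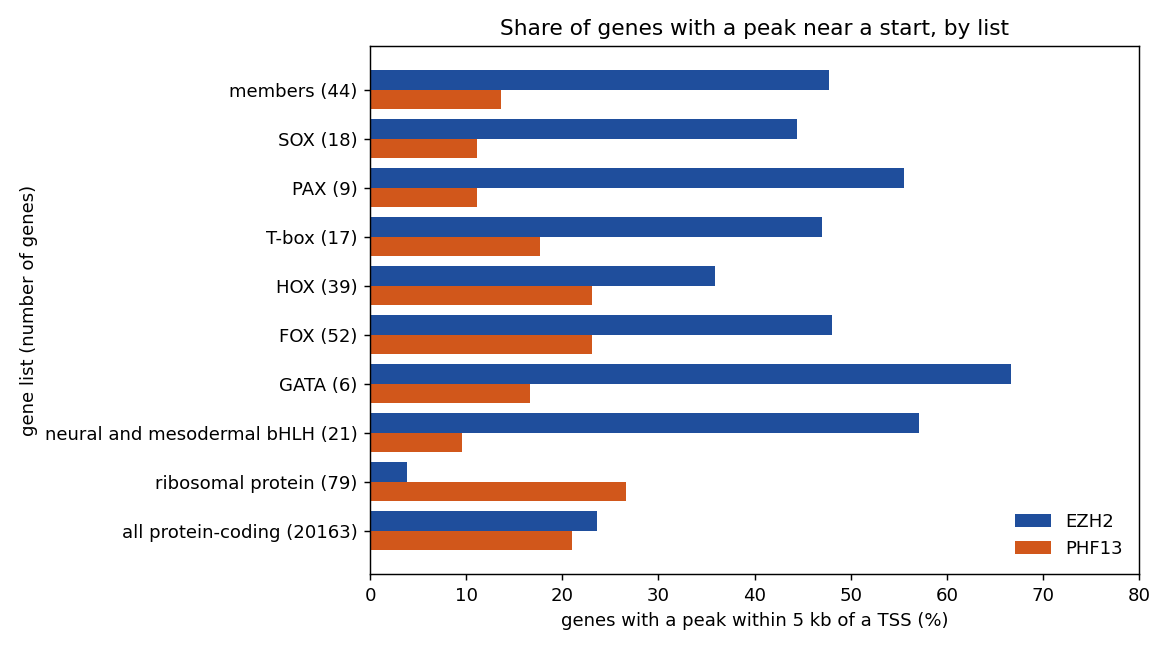
Share of genes, in percent, with an EZH2 (blue) or PHF13 (orange) peak within 5 kb of a TSS, for the 44 genes (members), their families, other gene lists and all protein-coding genes; list sizes are in brackets. EZH2 exceeds PHF13 in each developmental list, and the order turns in the ribosomal protein genes.

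No peak of either list was present at 15 of the 44 genes (34.1%), beside 51.4% of all protein-coding genes. These were SOX1, SOX3, SOX7, SOX10, SOX11, SOX12, SOX15, PAX1, PAX9, TBX3, TBX5, TBX10, TBX19, TBX22 and EOMES. EOMES, an endoderm and T-cell factor, came closest to EZH2, 6.96 kb from a TSS. TBX10 had EZH2 at 10.8 kb and PHF13 at 10.3 kb. TBX3 had EZH2 at 14.1 kb and PAX9 at 17.3 kb, with PHF13 at 230 kb and 448 kb. For EOMES the closest PHF13 peak was 188 kb away. SOX1, SOX11, SOX12 and SOX15 had their closest EZH2 peak at 86.9, 48.3, 43.2 and 60.5 kb and their closest PHF13 peak at 212, 36.2, 34.7 and 31.7 kb. PAX1 and TBX5 had EZH2 at 124 and 71.1 kb and PHF13 at 38.2 and 506 kb. SOX7 and SOX10, the neural crest and glial factor, had EZH2 at 158 and 156 kb and PHF13 at 49.4 and 191 kb. SOX3, TBX19 and TBX22 had EZH2 at 367, 129 and 1819 kb and PHF13 at 84.9, 63.6 and 2346 kb. An undetected peak does not show that a protein was absent, since the weakest peaks at these families had 15 or 16 fragments.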

How the data were processed

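Peak lists of 1 EZH2 and 1 PHF13 ChIP-seq library from PANC-1 cells were analysed as deposited; the input and reads were not analysed here. Per the methods, the authors trimmed reads with Trim Galore (0.4.1), aligned them to hg19 with Bowtie2 (2.4.1), took out PCR duplicates in Picard and ran MACS2 (2.2.7.1) for peaks, with the input stated as control. The deposited columns hold a score, the fold enrichment at the summit (a ratio) and the −log10 p-value and q-value. Both lists are in narrow-peak format and reach a −log10 q of 1.30 (1.31 for EZH2), although a stricter limit is described for PHF13 and broad peaks for EZH2.

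Fold and p were solved for whole fragments at the summit and the local background, with 1 solution in 100% of peaks (relative error 0.0001); library totals are unknown. Positions were compared with GRCh37 and GENCODE 44 mapped to it (Python 3.11.15, pandas 2.3.3, scipy 1.17.1, pysam 0.24.0). Peaks overlapped when sharing at least 1 bp. A summit was single-copy when the median 24-mer in 100 bp occurred once. The promoter table covered 32 of the 44 genes, so promoter CpG was computed from GRCh37 at the main start instead. The solver was tested on simulated data. Genes and lists were chosen with earlier results of these data known. Full values are given for the 12 genes with the widest EZH2 peak, any PHF13 peak overlapping EZH2 or reaching a −log10 q of 5, and the closest peaks of genes with none; other values are in brief. 1 comparison list and 1 summit sequence are not reported here. Counts were repeated with other distances, limits and copy filters.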

Additional observations from a re-analysis of the deposited data

How the results depend on the processing

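The number of genes with EZH2 ranged from 17 to 22 over the alternatives, and with EZH2 over 1 kb from 10 to 11, except 2 (SOX5 and PAX5) when the width limit was 2 kb. Where counted, the shares of all protein-coding genes were 16.4% to 30.0% with EZH2 and 6.62% to 7.35% with EZH2 over 1 kb. Over 2 kb the share was 1.29%. The PHF13 counts moved more. Within 5 kb of a TSS alone, PHF13 was present at 6 genes, beside 21.0% of all, and both proteins at 0, beside 5.33%. There, 0 PHF13 peaks overlapped EZH2. Within 1 kb, PHF13 was present at 4 genes, beside 13.6% of all, and both at 0, beside 2.01%, with 0 overlaps. At a −log10 q of at least 5, PHF13 was present at 3 genes and both at 2 (PAX5 and PAX7), with 0 overlaps. At this limit of 5, 2216 of all 20163 protein-coding genes had PHF13 and 565 had both. With a limit of 3 on −log10 q, an alternative chosen after the data had been examined, PHF13 was present at 6 genes and both at 3. Over all protein-coding genes the shares at the limit of 3 were 21.9% and 7.59%. With single-copy peaks only, PHF13 was present at 11 genes, beside 26.6% of all, and both at 4, beside 9.18%. No paired analysis was possible because each antibody has 1 library. The PHF13 peaks at these genes rested on a median of 19 fragments at the summit.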
